A study of Mus musculus with 22 samples.

Results

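A set of 10 genes of the insulin and insulin-like growth factor (IGF) pathway was followed in the mammary tissue of 22 mice: the ligand Igf1, the receptors Igf1r and Insr, the receptor substrates Irs1 and Irs2, the glucose transporter Slc2a4, and the binding proteins Igfbp3, Igfbp4, Igfbp5 and Igfbp6. They were picked by symbol from the 52526 distinct gene symbols in the data, and all 10 were among the 15138 genes above the lowest listed value in at least 5 mice. The animals were female C57BL/6J mice, 7 to 8 weeks old, and every mouse, controls included, carried 100000 EO771 cells in the left 4th mammary fat pad. EO771 is a mammary cancer line of the same strain, here marked with firefly luciferase. For 2 weeks the wheel group had a running wheel on a hub in the cage and the controls had only the hub, and both kept these until the tissue was taken 24 hours after the cells were placed. Each mouse also received 2 intravenous injections of liposomes, which held either phosphate-buffered saline (PBS) or clodronate, a compound that kills phagocytes that swallow it. The groups were control with PBS (n = 6), wheel with PBS (n = 6), control with clodronate (n = 5) and wheel with clodronate (n = 5). No group lacked cancer cells or liposomes, and the distance each mouse ran was not used here.

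IGF1 and insulin bind 2 related receptor tyrosine kinases, IGF1R and INSR, which phosphorylate the docking proteins IRS1 and IRS2 and so switch on PI3K and AKT. In fat and muscle this signal brings the glucose transporter GLUT4, the product of Slc2a4, to the cell surface. The IGF binding proteins hold IGF1 in the tissue and the circulation and set how much of it reaches the receptor. In the mammary gland, IGF1 made by the stroma and fat pad acts on the growing ducts, and IGFBP5 is known from the involuting gland.

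Gene levels are CPM, reads per gene that the authors scaled to a common total in every mouse, with 1 as the lowest listed value. QuantSeq reads the 3′ end of a transcript about once whatever its length, so that CPM can be set side by side between genes as it would be per length. Libraries held 13256467 to 20484578 reads, and none of the 10 genes was at the lowest listed value in any mouse. The fewest reads behind any of their values were 78, for Igfbp3. The tissue was rich in fat: all 12 adipocyte markers examined were above the lowest value in every mouse, with a summed level of 6913 to 22283 CPM. The summed level of 12 skeletal muscle markers ran from 38.8 to 31430 CPM, and 12 lymphocyte markers were high in 5 of the 22 mice, of which 3 ran on wheels with clodronate, 1 on a wheel with PBS and 1 was a control with PBS. Their lymphocyte score, the mean of log2(CPM + 1) over the list, was at least 4.12, and that of the other 17 mice at most 1.40. The calls on the 10 genes are given with and without these 5 mice.

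The promoters of Igf1, Igfbp4, Igfbp5, Irs1 and Irs2 are shown first, because each of these genes was in at least 1 of the 6 correlated pairs described further on. They are RefSeq windows of 250 bases before to 50 bases after the annotated start, on the strand of the gene in GRCm38.p6. Capitals mark the letters of 5 motifs found on either strand, none overlapping another. The TATA box was searched for as TATAAA. The second motif was the CCAAT box, spelled as its name. The GC box was taken to be GGGCGG. For the E-box the palindrome CACGTG was used. The core site of FOXO factors was read as TGTTTAC.
Igf1, chr10:87860861-87861160, plus strand: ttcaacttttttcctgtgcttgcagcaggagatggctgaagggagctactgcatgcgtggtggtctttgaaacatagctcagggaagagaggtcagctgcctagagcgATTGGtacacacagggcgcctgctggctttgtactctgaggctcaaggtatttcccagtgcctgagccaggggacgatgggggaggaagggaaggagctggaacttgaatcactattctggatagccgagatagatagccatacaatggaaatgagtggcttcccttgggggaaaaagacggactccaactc
Igfbp4, chr11:99040994-99041293, plus strand: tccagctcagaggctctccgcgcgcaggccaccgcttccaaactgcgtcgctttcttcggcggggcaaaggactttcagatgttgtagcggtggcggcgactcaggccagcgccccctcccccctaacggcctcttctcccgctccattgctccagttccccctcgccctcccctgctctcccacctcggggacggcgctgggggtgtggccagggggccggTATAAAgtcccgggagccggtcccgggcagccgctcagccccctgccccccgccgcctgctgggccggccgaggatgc
Igfbp5, chr1:72874816-72875115, minus strand: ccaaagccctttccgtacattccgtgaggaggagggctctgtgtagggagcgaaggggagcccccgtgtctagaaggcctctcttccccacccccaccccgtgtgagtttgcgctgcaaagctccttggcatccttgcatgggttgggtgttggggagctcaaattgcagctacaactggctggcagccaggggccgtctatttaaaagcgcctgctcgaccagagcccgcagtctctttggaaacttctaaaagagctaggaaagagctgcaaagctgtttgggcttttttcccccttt
Irs1, chr1:82291390-82291689, minus strand: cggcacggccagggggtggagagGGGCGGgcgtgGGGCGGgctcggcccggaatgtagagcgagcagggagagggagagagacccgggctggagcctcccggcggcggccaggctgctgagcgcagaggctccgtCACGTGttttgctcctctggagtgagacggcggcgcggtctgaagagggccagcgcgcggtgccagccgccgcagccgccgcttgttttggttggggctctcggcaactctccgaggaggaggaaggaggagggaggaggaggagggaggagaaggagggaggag
Irs2, chr8:11008880-11009179, minus strand: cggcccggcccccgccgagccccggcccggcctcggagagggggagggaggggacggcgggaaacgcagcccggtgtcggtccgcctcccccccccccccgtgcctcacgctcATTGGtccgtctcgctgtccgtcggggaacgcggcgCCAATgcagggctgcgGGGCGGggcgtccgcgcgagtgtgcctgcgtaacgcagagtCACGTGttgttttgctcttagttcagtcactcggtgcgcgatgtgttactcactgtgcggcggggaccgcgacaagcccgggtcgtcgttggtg
Both substrate genes held an E-box, at 115 bases before the start in Irs1 and 44 in Irs2, a motif present in 7.15% of the 32851 RefSeq promoters searched. Irs1 also held a pair of GC boxes and Irs2 held 1, a motif present in 35.7% of promoters. Irs2 had 2 CCAAT boxes as well. Igfbp4 had a TATA box 28 bases before its start, as 13.6% of promoters did somewhere in the window. Igf1 had a single CCAAT box, present in 37.4% of promoters, and none of the 5 motifs was in the Igfbp5 window. The FOXO core, present in 3.65% of promoters, was in none of the 8 windows found for the 10 genes. The windows differed in base composition, from 52.3% G and C in Igf1 and 56.3% in Igfbp5 to 71.3% in Igfbp4 and Irs1 and 72.0% in Irs2, against a median of 52.7% over all promoters. A match of letters is a description of the window, and no motif was shared by all 5 genes.

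The 10 genes ranged from among the most abundant genes of the tissue to moderate levels. Igfbp4 was the most abundant at 439 ± 112 CPM (SD, n = 22), above 99.4% of the genes tested, and exceeded Igfbp5 (251 ± 79.0 CPM) in all 22 mice. Igf1 followed at 188 ± 57.6 CPM, below Igfbp5 in 19 of 22 mice, and above Slc2a4 (101 ± 29.5 CPM) in all 22. The receptors and substrates lay lower and close together, with Igf1r at 60.9 ± 10.1, Irs1 at 55.8 ± 17.9, Irs2 at 40.1 ± 16.1 and Insr at 30.1 ± 6.17 CPM. Igfbp6 (26.4 ± 10.9 CPM) and Igfbp3 (22.3 ± 14.0 CPM) came last. From Igf1r downward, each neighbour in this order differed from the next by less than 1 SD of the paired log2 difference over mice, as did Igfbp5 from Igf1. So the abundant end of the list was made of the secreted ligand and 2 of its binding proteins.

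The genes also differed in how much mice of a group varied. Igf1r was among the steadiest genes of the tissue, with a within-group SD of 0.25 on the log2(CPM + 1) scale, smaller than in all but 9.57% of genes and against a median of 0.46. Its highest mouse was 2.06 times its lowest. Igfbp3 was at the other end, with an SD of 0.92, larger than in 93.4% of genes, and a highest mouse 11.7 times the lowest. Igfbp4 and Insr both had an SD of 0.31, Slc2a4 0.40, Igf1 0.44, Igfbp5 0.45, Irs1 0.46, Irs2 0.52 and Igfbp6 0.53.

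**Figure D1:**
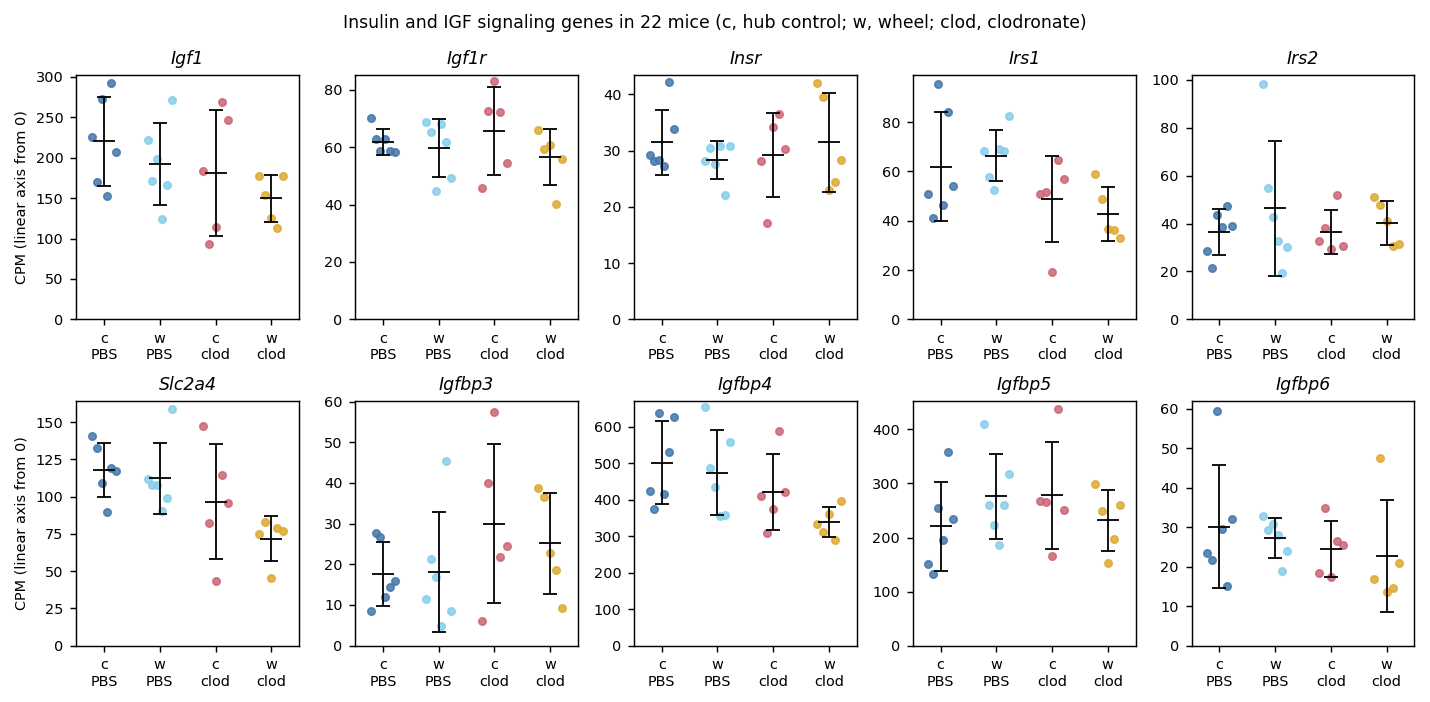
Level of each gene in CPM (vertical axes, linear from 0) in single mice (points) of the 4 groups, with the group mean and SD (bars). Slc2a4 in wheel mice with clodronate lies between 45.3 and 83.0 CPM, below every wheel mouse with PBS.

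The main question of the design was whether voluntary running changed the tissue, and whether it did so when phagocytes had been targeted with clodronate. Neither comparison of wheel with control gave a difference in any of the 10 genes beyond the spread between mice. Genes were tested with limma on log2(CPM + 1) with the 4 groups fitted together and p-values adjusted over all 15138 genes by the Benjamini-Hochberg method. With PBS liposomes, 0 of the 10 genes passed an adjusted p of 0.05 and 0 of 15138 genes did (0%). At an unadjusted p of 0.05 it was again 0 of the 10, where 4.91% of all genes passed. With clodronate liposomes 0 of the 10 passed the adjusted threshold, as 0.00661% of all genes did (1 gene), and 0 of the 10 had an unadjusted p under 0.05, against 10.4% of all genes. Averaged over liposomes, 0 of the 10 passed adjusted (0% of all genes) or unadjusted, against 8.09% of all genes. Without the 5 lymphocyte-rich mice, which leaves 2 wheel mice with clodronate, 0 of the 10 passed adjusted in either liposome, and the wheel change with clodronate turned from below to above 0 for Igfbp3 (0.62), Igfbp5 (0.042), Igfbp6 (0.25) and Irs1 (0.25). For the interaction of activity and liposome the counts were again 0 and 0 of the 10, with 0% and 7.58% of all genes. A count of 0 does not show equal levels, and the intervals below say how large a change was still compatible with the data.

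Igf1, the growth factor itself, lies on chromosome 10 (87858265 to 87937042, plus strand) in the GENCODE M21 annotation of GRCm38, from which all gene positions here are taken. With PBS liposomes it ran from 153 to 293 CPM (median 216) in control mice and from 124 to 272 (median 184) in wheel mice. With clodronate it was 183, 93.3, 115, 269 and 247 CPM in control mice and 178, 154, 125, 113 and 177 in wheel mice. The groups overlapped throughout, and 3 mice with clodronate were lower than any mouse with PBS. The log2 change with the wheel was -0.20 (95% interval -0.69 to 0.29, limma adjusted p = 0.988) with PBS and -0.18 (-0.72 to 0.35, limma adjusted p = 0.876) with clodronate. The 5′ part of Igf1 overlaps the antisense gene Igf1os, which averaged 1.33 CPM and does not reach the last 600 bases of Igf1. Whether the counting used strand is not given in the sources used here.

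In neither receptor did the wheel difference exceed the spread between mice. Igf1r (chromosome 7, 67952827 to 68233668, plus strand), the receptor for IGF1, had 58.3 to 70.0 CPM (median 60.7) in control and 44.8 to 68.7 (median 63.6) in wheel mice with PBS, and its wheel effect was -0.07 (95% interval -0.38 to 0.24, limma adjusted p = 0.993). In mice with clodronate the values were 45.7, 72.5, 83.1, 72.2 and 54.5 CPM in control and 66.0, 59.3, 60.9, 40.3 and 56.0 CPM in wheel mice, a change of -0.20 (-0.54 to 0.14, limma adjusted p = 0.756). The control mice with PBS lay closest together, and each of the other groups overlapped them. Insr (chromosome 8, 3122061 to 3279617, minus strand), the insulin receptor, had 27.2 to 42.3 CPM (median 28.8) in control and 22.2 to 30.9 (median 29.4) in wheel mice with PBS, a change of -0.14 (-0.52 to 0.24, limma adjusted p = 0.991). With clodronate its values were 28.2, 17.1, 34.2, 36.5 and 30.3 CPM in control and 42.0, 39.6, 23.0, 24.4 and 28.3 CPM in wheel mice, a log2 change of 0.10. In every one of the 22 mice the IGF1 receptor transcript exceeded the insulin receptor transcript, by 2.10 ± 0.62 times (SD, n = 22), with a lowest ratio of 1.39.

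The substrates, which couple both receptors to PI3K, overlapped between groups as well. Irs1 (chromosome 1, 82233101 to 82291416, minus strand) had 41.2 to 95.4 CPM (median 52.3) in control and 52.6 to 82.4 (median 68.2) in wheel mice with PBS. The mice given clodronate had 50.7, 51.7, 19.0, 64.8 and 57.0 CPM in control mice and 59.0, 48.9, 36.5, 36.4 and 33.1 in wheel mice. The wheel change was 0.15 (95% interval -0.36 to 0.66, limma adjusted p = 0.991) with PBS and -0.11 (-0.67 to 0.45, limma adjusted p = 0.936) with clodronate. The 3′ end of Irs1 is overlapped on the opposite strand by Gm9747, which was at the lowest listed value in every mouse. Irs2 (chromosome 8, 10984681 to 11008458, minus strand) had 21.4 to 47.2 CPM (median 38.9) in control and 19.4 to 98.2 (median 37.7) in wheel mice with PBS, so that wheel mice held both the lowest and the highest value of the gene. Clodronate mice gave 32.7, 38.2, 29.5, 51.9 and 30.6 CPM in control and 50.9, 47.7, 41.2, 30.6 and 31.4 CPM in wheel mice. Its wheel change was 0.20 (-0.37 to 0.77) with PBS and 0.14 (-0.49 to 0.77) with clodronate, with limma adjusted p of 0.991 and 0.922. Irs1 was above Irs2 in 19 of 22 mice, with a ratio of 1.52 ± 0.68 (SD, n = 22).

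Slc2a4 (chromosome 11, 69942539 to 69948188, minus strand) encodes the insulin-responsive glucose transporter of adipocytes and muscle. It had 89.7 to 141 CPM (median 118) in control and 90.4 to 158 (median 108) in wheel mice with PBS. After clodronate it was 148, 82.0, 43.2, 114 and 95.8 CPM in control and 74.9, 83.0, 45.3, 79.0 and 77.0 CPM in wheel mice. Wheel mice with clodronate formed the lowest group, and only 2 of the control mice with clodronate, at 43.2 and 82.0 CPM, were as low. The wheel change was -0.08 (95% interval -0.53 to 0.37, limma adjusted p = 0.997) with PBS and -0.34 (-0.83 to 0.14, limma adjusted p = 0.680) with clodronate, and the interaction was -0.27 (-0.93 to 0.40, limma adjusted p = 0.907).

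Among the 4 binding proteins of the set, Igfbp4 and Igfbp5 made up nearly all of the transcripts. Igfbp4 (chromosome 11, 99041244 to 99054392, plus strand), an inhibitory binding protein, gave 59.4 ± 6.35% of the summed CPM of the 4 and Igfbp5 33.8 ± 5.92% (SD, n = 22). The sum exceeded Igf1 in all 22 mice, by 4.13 ± 0.92 times. Igfbp6 gave 3.62% and Igfbp3 3.22% on average. Igfbp7, which belongs to the wider pathway list described further on, had group means of 176 to 271 CPM and is not part of this sum.

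Igfbp4 had 375 to 638 CPM (median 478) in control and 356 to 654 (median 461) in wheel mice with PBS. With clodronate liposomes it read 412, 310, 374, 589 and 423 CPM in control and 335, 312, 362, 290 and 398 CPM in wheel mice. Its wheel change was -0.09 (95% interval -0.45 to 0.28, limma adjusted p = 0.993) with PBS and -0.29 (-0.69 to 0.11, limma adjusted p = 0.665) with clodronate. Igfbp5 (chromosome 1, 72857932 to 72874884, minus strand), a binding protein that also sticks to matrix, had the largest wheel difference of the 10 genes with PBS and the largest interaction, neither past a threshold. It had 132 to 358 CPM (median 214) in control and 187 to 410 (median 261) in wheel mice with PBS, a change of 0.36 (-0.14 to 0.86, limma adjusted p = 0.987). With clodronate the order was the other way, with 268, 266, 166, 438 and 251 CPM in control and 298, 249, 153, 198 and 261 CPM in wheel mice, a change of -0.23 (-0.78 to 0.32, limma adjusted p = 0.838). The interaction was -0.59 (-1.33 to 0.16, limma adjusted p = 0.724). With PBS the cell division markers, with which Igfbp5 moved inversely across mice as described further on, were all 12 lower in wheel mice (median log2 change -0.61, 0 of 12 at an unadjusted limma p under 0.05). With clodronate 6 of the 12 were higher and 6 lower (median 0.013), and in the interaction 11 were above 0 (median 0.90), again 0 of 12 unadjusted in each. The part of these markers in the Igfbp5 differences was not tested.

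Igfbp3 (chromosome 11, 7206086 to 7213923, minus strand), the main carrier of IGF1 in blood, was the most variable member. It ran from 8.61 to 27.8 CPM (median 15.3) in control and from 4.90 to 45.5 (median 14.2) in wheel mice with PBS. With clodronate it was 6.05, 39.9, 57.5, 21.9 and 24.6 CPM in control and 38.6, 36.5, 22.8, 18.6 and 9.22 CPM in wheel mice. Its wheel change had the widest 95% intervals of the 10 genes, -1.16 to 0.83 on the log2 scale with PBS and -1.19 to 1.00 with clodronate (limma adjusted p = 0.997 and 0.978), so that changes of this size could not be seen in these mice. All 12 skeletal muscle markers, with which Igfbp3 correlated across mice, were lower in wheel mice with either liposome (median log2 change -1.92 with PBS and -1.21 with clodronate, 0 of 12 at an unadjusted limma p under 0.05 in each), and their part in the Igfbp3 values was not tested. Igfbp6 (chromosome 15, 102144362 to 102149511, plus strand), a binding protein that prefers IGF2, had 15.1 to 59.5 CPM (median 26.4) in control and 19.0 to 32.9 (median 28.7) in wheel mice with PBS, a change of -0.03 (-0.63 to 0.57, limma adjusted p = 0.998). In mice with clodronate the values were 18.5, 34.8, 17.3, 26.6 and 25.5 CPM in control and 16.9, 47.6, 13.6, 14.6 and 21.0 CPM in wheel mice, a log2 change of -0.22.

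The second question was the effect of clodronate itself, taken over both activities. Here Slc2a4, Irs1 and Igfbp4 had lower means with clodronate, but no gene of the 10 passed the adjusted threshold (0 of 10, against 0.205% of all genes, 31 of 15138, all lower with clodronate). The count over all genes depended on the scaling, with 1 gene higher and 13 lower after upper-quartile scaling and 0 higher and 15 lower after scaling to reads in genes. At an unadjusted p under 0.05 it was 3 of the 10, all lower, against 10.4% of all genes in either direction and 8.3% lower with clodronate. In all, 8 of the 10 had a lower mean, where 57.4% of all genes did, with a median log2 change of -0.15 against -0.04 over all genes. In bulk tissue, fewer cells of a type and less RNA per cell cannot be told apart.

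Slc2a4 averaged 115 ± 20.4 CPM with PBS (SD, n = 12) and 84.2 ± 30.6 with clodronate (SD, n = 10), a log2 change of -0.51 (95% interval -0.84 to -0.18), or 0.70-fold (0.56 to 0.88), with a limma p of 0.00391 and an adjusted p of 0.194. In wheel mice the groups did not overlap, since all 5 mice with clodronate were below all 6 with PBS, while in control mice they did. Leaving out the lymphocyte-rich mice, the 2 wheel mice with clodronate, at 74.9 and 83.0 CPM, were still below the 5 with PBS. Of the 10 genes, 1 did not overlap between liposomes in wheel mice, where 1.26% of all genes did not, and 0 of the 10 in control mice, where 0.634% did not. For wheel against control, 0 of the 10 were free of overlap with either liposome, against 0.264% of genes with PBS and 1.27% with clodronate. Over both activities, 7 of the 10 mice with clodronate lay below the lowest mouse with PBS.

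Irs1 averaged 64.1 ± 16.7 CPM with PBS (n = 12) and 45.7 ± 14.1 with clodronate (n = 10), a log2 change of -0.51 (95% interval -0.89 to -0.13; 0.70-fold), with a limma p of 0.0103 and an adjusted p of 0.285. Igfbp4 averaged 489 ± 111 and 380 ± 86.2 CPM (SD), a change of -0.36 (-0.63 to -0.09; 0.78-fold), with a limma p of 0.0121 and an adjusted p of 0.303. For each of these 2 genes, 4 of the 10 mice with clodronate were below every mouse with PBS. Igf1 was lower by a similar factor, 0.79-fold (0.61 to 1.01), with an unadjusted limma p of 0.0594. Igfbp3 had a higher mean with clodronate, 1.49-fold (0.89 to 2.49, limma adjusted p = 0.596). Igfbp6 had a log2 change of -0.30 and was not among the genes at an unadjusted limma p under 0.05. Igf1r, Insr, Irs2 and Igfbp5 had log2 changes between -0.01 and 0.05, with 95% intervals lying within -0.43 and 0.42.

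Averaged over activity, several marker lists also differed with clodronate. Of 12 adipocyte markers 11 were lower (4 at an unadjusted limma p under 0.05), of 12 fibroblast and adipose progenitor markers 11 were lower (6 unadjusted), and of 12 macrophage markers 12 were lower (2 unadjusted), while 0 of each list passed the adjusted threshold. All 12 skeletal muscle and all 12 lymphocyte markers were higher, 0 of them at an unadjusted p under 0.05. The lymphocyte score was 1.60 and 1.69 in control and wheel mice with PBS and 1.21 and 3.62 with clodronate, so it was higher only in wheel mice. The highest summed muscle levels, 31430 and 13744 CPM, were those of control mouse 2 and wheel mouse 2 with clodronate. The adipocyte score was 9.17 and 9.21 in control and wheel mice with PBS and 9.06 and 8.78 with clodronate. The macrophage score was 4.80 and 4.60 in control and wheel mice with PBS and 4.29 and 4.57 with clodronate. It was thus lower mainly in control mice. The median summed level of the macrophage markers was 555 and 506 CPM with PBS and 369 and 754 with clodronate, in the same order. The part of these lists in the changes of the 10 genes was not tested. Without the 5 lymphocyte-rich mice, Slc2a4 had a log2 change of -0.42 (limma adjusted p = 0.425), Irs1 -0.41 (adjusted p = 0.466) and Igfbp4 -0.43 (adjusted p = 0.314), and of the 3 only Igfbp4 then had an unadjusted limma p under 0.05. Igfbp3, the gene with the higher mean, had a log2 change of 1.03 without these mice, against 0.58 with all mice. Without them it was also under the unadjusted threshold, and it did not pass the adjusted one. With each mouse rescaled to the same upper quartile, the change was -0.43 for Slc2a4, -0.43 for Irs1 and -0.27 for Igfbp4. With that scaling, 5 rather than 8 of the 10 genes were lower.

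**Figure D2:**
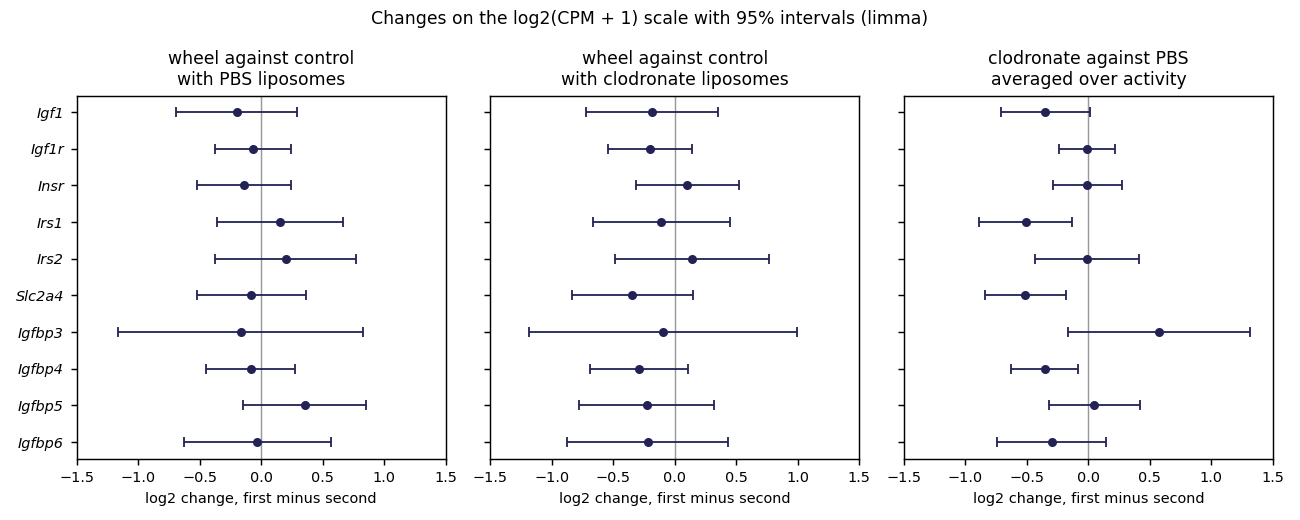
Log2 change of each gene on the log2(CPM + 1) scale (horizontal axes, the first named group minus the second) with its 95% limma interval (bars) in 3 comparisons. Intervals that leave 0 are those of Slc2a4, Irs1 and Igfbp4 with clodronate against PBS, at -0.51, -0.51 and -0.36.

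The rest of the pathway was read from 64 further genes, grouped as ligands, receptors, other binding proteins and their proteases, adaptors and inhibitors, PI3K and AKT with their outputs, other glucose transporters, and the growth hormone axis. Of these 59 could be tested, and both insulin genes could not. None of the 59 passed the adjusted threshold in any of the 5 comparisons by limma. At an unadjusted p under 0.05 there were 3 with the wheel and PBS (3 lower), 9 with the wheel and clodronate (6 higher, 3 lower), 3 averaged over liposomes, 6 with clodronate against PBS (3 higher, 3 lower) and 11 in the interaction. As shares of the list these were 5.08%, 15.3%, 5.08%, 10.2% and 18.6%, beside 4.91%, 10.4%, 8.09%, 10.4% and 7.58% of all genes. The list was not tested as a set. In the interaction all 12 lymphocyte markers were also above 0 (median 2.31 on the log2 scale, 4 at an unadjusted limma p under 0.05), and averaged over liposomes all 12 were higher in wheel mice (9 unadjusted). Their part in the counts of the pathway list was not tested.

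By smallest p, the genes of this list with the wheel and PBS were Slc2a3, the neuronal and leukocyte glucose transporter, at -0.95 on the log2 scale (limma adjusted p = 0.961), and Pik3r1, the regulatory subunit of PI3K, at -0.48 (adjusted p = 0.987). With the wheel and clodronate they were Grb2, an adaptor that links receptors to RAS (0.60, limma adjusted p = 0.260), and Pik3cd, the leukocyte PI3K catalytic subunit (1.97, limma adjusted p = 0.275). In that comparison all 12 lymphocyte markers were also higher in wheel mice, each at an unadjusted limma p under 0.05, and 3 of the 5 wheel mice were lymphocyte-rich. Averaged over liposomes they were Grb14, an adaptor that inhibits the insulin receptor (-0.74, limma adjusted p = 0.567), and Pik3r1 (-0.41, adjusted p = 0.587). With clodronate against PBS they were Foxo3, a transcription factor held out of the nucleus by AKT (0.44, limma adjusted p = 0.234), and Gsk3a, a kinase inhibited by AKT (0.32, limma adjusted p = 0.329). In the interaction they were Slc2a3 (1.84, limma adjusted p = 0.459) and Trib3, an inhibitor of AKT (-1.65, limma adjusted p = 0.603). Slc2a3, Grb14 and Trib3 had low levels. With PBS, Slc2a3 had a mean log2(CPM + 1) of 1.45 in wheel and 2.40 in control mice, where a gene at the lowest listed value reads 1. Group means were 3.20 to 6.41 CPM for Grb14 and 2.85 to 7.88 CPM for Trib3. The components downstream of the receptors gave no called difference to set beside the 10 genes.

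Mice of a group differed from each other, and some of the 10 genes varied together in pairs. Values were centred on their group mean, and p-values come from 100000 permutations of the mice within groups, two-sided, adjusted over the 45 pairs. Across the 22 mice, 6 of 45 pairs had an adjusted permutation p under 0.05 for Pearson's r, all 6 positive, and 11 had an unadjusted p under 0.05. The 6 pairs were drawn from Igf1, Igfbp4, Igfbp5, Irs1 and Irs2, and Igfbp5 was in 4 of them. Genes measured in a mouse share its library and its scaling, and the labels place all mice in 1 experiment, so that no batch could be set apart.

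Igf1 varied together with the 2 abundant binding proteins of the set. Its correlation with Igfbp4 was r = 0.74 (permutation p = 0.00025, adjusted p = 0.0112; rho = 0.76, permutation p = 0.00018, adjusted p = 0.0081) and with Igfbp5 r = 0.67 (permutation p = 0.00144, adjusted p = 0.0216; rho = 0.71, permutation p = 0.00073, adjusted p = 0.0124). Igfbp4 and Igfbp5 gave r = 0.67 (permutation p = 0.0023, adjusted p = 0.022; rho = 0.69, permutation p = 0.00199, adjusted p = 0.0224). With the 2 mice farthest from the median of the first gene left out, these were 0.70, 0.75 and 0.61.

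Both substrates varied together with Igfbp5. Igfbp5 and Irs1 gave r = 0.71 (permutation p = 0.0012, adjusted p = 0.0216; rho = 0.73, permutation p = 0.00083, adjusted p = 0.0124), and Igfbp5 and Irs2 r = 0.61 (permutation p = 0.00245, adjusted p = 0.022; rho = 0.60, permutation p = 0.00631, adjusted p = 0.0473). Igfbp4 and Irs2 gave r = 0.62 (permutation p = 0.00646, adjusted p = 0.0484), where rho = 0.53 did not pass (permutation p = 0.02, adjusted p = 0.112). Leaving out the 2 farthest mice gave 0.64, 0.49 and 0.47. Of the 10101 other genes with a mean of at least 5 CPM, 0.327% were as strongly correlated with Irs1 as Igfbp5 was. For Igfbp4, 1.27% were as strongly correlated with it as Igf1 was. For Igfbp5, 2.02% were as strongly correlated with it as Igf1 was, and 1.99% as Igfbp4 was. For Irs2, 1.58% were as strongly correlated with it as Igfbp4 was. Irs1 and Irs2 with each other gave r = 0.34 (permutation p = 0.0598, adjusted p = 0.209; rho = 0.46, permutation p = 0.0253, adjusted p = 0.114). Without the 5 lymphocyte-rich mice, the 6 coefficients lay between 0.61 and 0.76 in the other 17 mice and each had an unadjusted permutation p under 0.05, but 0 of the 45 pairs passed after adjustment (smallest adjusted permutation p 0.0679).

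The 10 genes were also set against marker scores for adipocytes, skeletal muscle, fibroblasts and adipose progenitors, mammary epithelium, macrophages, lymphocytes, blood vessel endothelium and cell division. Of 80 relations, 17 had an adjusted permutation p under 0.05, 6 of them with the adipocyte score, 4 with cell division and 3 with blood vessel endothelium. Other genes were not put through these permutations, so the counts do not show that such relations are particular to the 10 genes. Among the 17, Irs1 with the lymphocyte score is given no coefficient over all mice since the scores form 2 separate clusters, and within the 17 lymphocyte-poor mice it was r = -0.46 (permutation p = 0.182). For mammary epithelium and macrophages 0 of 10 genes passed, with 1 of 10 unadjusted each.

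Igf1 followed the adipocyte score. It correlated with the adipocyte score at r = 0.85 (permutation p = 1e-05, the smallest that the permutations can give, adjusted p = 0.0008; rho = 0.85, permutation p = 3e-05, adjusted p = 0.0008), and at 0.82 without the 2 farthest mice and 0.89 in the 17 lymphocyte-poor mice. The gene most like it of all was Plin1, the coat protein of the fat droplet and 1 of the 12 adipocyte markers (r = 0.91), followed by Flt1, a VEGF receptor (r = 0.90). Igfbp4 had r = 0.82 with the adipocyte score (permutation p = 5e-05, adjusted p = 0.00112; rho = 0.84, permutation p = 2e-05, adjusted p = 0.0008), and the same r of 0.82 with the fibroblast and the blood vessel scores (rho 0.82 and 0.85, adjusted permutation p = 0.00112 for both r, 0.00192 and 0.0008 for rho). Without the 2 farthest mice these 3 were 0.76, 0.77 and 0.78, and in the 17 lymphocyte-poor mice 0.91, 0.82 and 0.81, all 3 passing after adjustment. Its closest genes were Nid1, a basement membrane component (r = 0.92), and Sptbn1, a spectrin (r = 0.91). Igf1 gave r = 0.79 with the blood vessel score (permutation p = 0.00068, adjusted p = 0.00604; rho = 0.76, permutation p = 0.00091, adjusted p = 0.00728; 0.71 without the 2 farthest mice and 0.85 in the 17 lymphocyte-poor mice). Irs1 (r = 0.64, rho = 0.66), Insr (r = 0.60, rho = 0.52) and Irs2 (r = 0.59, rho = 0.56) also went with the adipocyte score, with adjusted permutation p of 0.0127, 0.0227 and 0.0362, but Insr and Irs2 did not pass by rho (adjusted permutation p 0.0615 and 0.0650), and without the 2 farthest mice the 3 were 0.57, 0.45 and 0.43. In the 17 lymphocyte-poor mice they were 0.55, 0.53 and 0.54, and none of the 3 passed (adjusted permutation p = 0.158, 0.214 and 0.208).

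Igfbp5 ran opposite to cell division. Its correlation with 12 mitotic genes was r = -0.82 (permutation p = 2e-05, adjusted p = 0.0008; rho = -0.75, permutation p = 0.00018, adjusted p = 0.0021), -0.84 without the 2 farthest mice and -0.88 in the 17 lymphocyte-poor mice. The mice with the 3 lowest cell division scores, 1.40, 1.40 and 1.53, were the 3 with the highest Igfbp5, at 358, 438 and 410 CPM. They belonged to 3 different groups. In these mice the 12 mitotic genes summed to only 22.4, 21.7 and 25.0 CPM, with a lowest listed value of 1 for each gene. Only 4 of the 12 were above that value in every mouse, so the low end of the score lies near its floor. Igf1 (r = -0.67, rho = -0.70), Irs1 (r = -0.61, rho = -0.58) and Slc2a4 (r = -0.57, rho = -0.62) ran the same way, with adjusted permutation p of 0.0178, 0.0198 and 0.0378 for r and 0.0129, 0.0348 and 0.0328 for rho. Without the 2 farthest mice they were -0.65, -0.60 and -0.44. In the 17 lymphocyte-poor mice Igf1 passed at r = -0.72 (adjusted permutation p = 0.0468), while Irs1 (r = -0.58, adjusted permutation p = 0.138) and Slc2a4 (r = -0.55, adjusted permutation p = 0.158) did not. Igfbp5 also went with the blood vessel (r = 0.73, rho = 0.76), adipocyte (r = 0.72, rho = 0.76) and fibroblast scores (r = 0.65, rho = 0.68), with adjusted permutation p of at most 0.0186 for r and 0.0129 for rho, and r of 0.65, 0.65 and 0.50 without the 2 farthest mice. In the 17 mice these were 0.81, 0.69 and 0.61, of which the blood vessel relation passed (adjusted permutation p = 0.004) and those with adipocytes and fibroblasts did not (adjusted permutation p = 0.0508 and 0.158). The gene most like Igfbp5 was Dapk1, which encodes a death-associated kinase (r = 0.89).

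Igfbp3 followed the skeletal muscle score. It correlated with it at r = 0.72 (permutation p = 0.00033, adjusted p = 0.0035; rho = 0.74, permutation p = 0.00021, adjusted p = 0.0021), 0.66 without the 2 farthest mice and 0.72 in the 17 lymphocyte-poor mice, and with no other member at an adjusted p under 0.05. Slc2a4, which muscle also uses, had a coefficient below 0 with the muscle score (r = -0.40, permutation p = 0.169, adjusted p = 0.346; rho = -0.52, permutation p = 0.0263, adjusted p = 0.0931). The control mouse with clodronate that held the most muscle RNA, 31430 CPM summed, had 82.0 CPM of Slc2a4. The mouse with the most Slc2a4, 158 CPM, was a wheel mouse with PBS and had 63.3 CPM of muscle markers. Other mice went the other way. In wheel mice 4 and 5 with clodronate, muscle markers summed to only 42.1 and 41.6 CPM. Their Slc2a4, at 79.0 and 77.0 CPM, was below that of the mouse with the most muscle RNA. Slc2a4 with the adipocyte score gave r = 0.54 and rho = 0.54, neither passing after adjustment. The genes most like Slc2a4 were Aldh1l1 (r = 0.90), a folate enzyme, and Ndufa7 (r = 0.85), a subunit of respiratory complex I, and those most like Igfbp3 were Fam89a (r = 0.88) and Hsf2, a heat shock factor (r = 0.87).

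**Figure D3:**
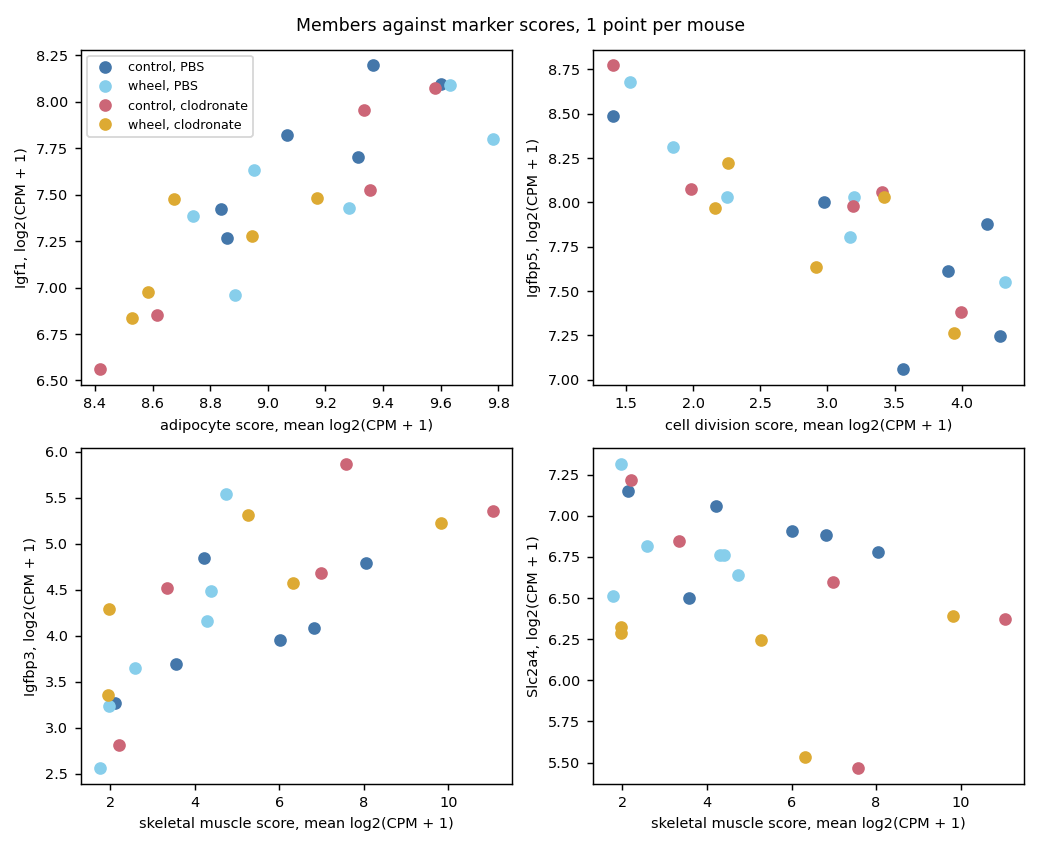
Levels of Igf1, Igfbp5, Igfbp3 and Slc2a4 (vertical axes, log2(CPM + 1)) against a marker score (horizontal axes, mean log2(CPM + 1) over the list), 1 point per mouse coloured by group. Igf1 climbs with the adipocyte score, Igfbp5 falls with cell division, Igfbp3 climbs with muscle, and Slc2a4 has r = -0.40 with muscle.

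Igf1r had 0 adjusted relations with the other 9 genes or the 8 scores, and its lowest coefficient was with Slc2a4 (r = -0.53, permutation p = 0.0464, adjusted p = 0.19; rho = -0.37, permutation p = 0.131). Its most similar genes were Ptprs, a receptor phosphatase (r = 0.82), and Fam129b (r = 0.80). Igfbp6 likewise had 0 adjusted relations, with Macrod1 (r = 0.81) and Tmod1, an actin-capping protein (r = 0.79), most like it. For Insr these were Rhou, a small GTPase (r = 0.77), and Firre, a noncoding RNA (r = 0.75), for Irs1 Gm2830 (r = 0.87) and Bcorl1 (r = 0.83), and for Irs2 Eepd1 and Blcap (both r = 0.83). These neighbours were picked as the highest of 10102 genes, and are a description without a test.

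**Figure D4:**
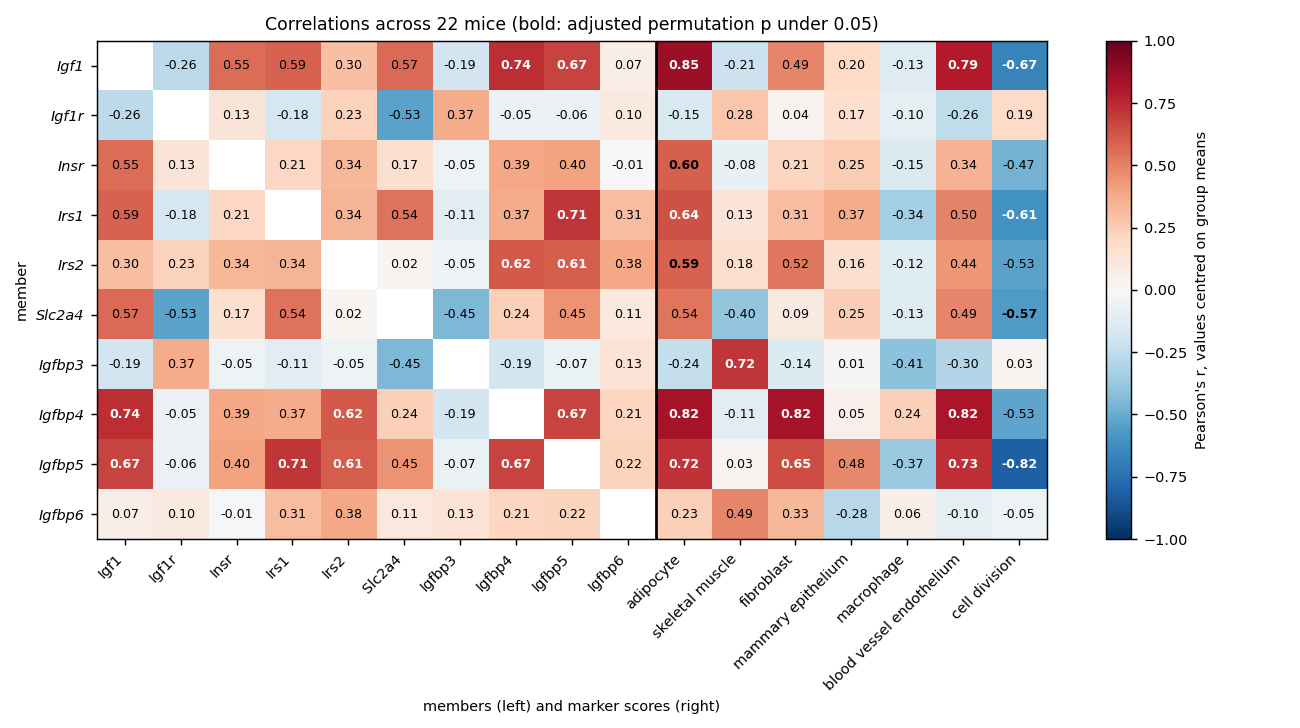
Pearson's r across 22 mice, centred on group means, of each of the 10 genes (rows) with the other 9 (columns left of the line) and with 7 marker scores (right), on a colour scale from -1 to 1. Values with an adjusted permutation p under 0.05 are bold, and they are most frequent in the rows of Igf1, Igfbp4 and Igfbp5, while the rows of Igf1r and Igfbp6 hold 0.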

How the data were processed

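RNA of the left 4th mammary tissue was read by QuantSeq 3′ FWD in 22 mice, grouped by the labels. The authors deposited a signal per gene symbol in CPM of each mouse's reads, values below 1 being set to 1. Per the labels, STAR 2.5.3a and GRCm38 were used, and the counting is not given in the sources used here. The 4 rows that name no gene were left out, and for the 106 symbols with several rows the most abundant row stood for the symbol. All values above the floor were whole multiples, within 0.1 reads, of the value of 1 read, which gave the depth. A gene at the floor could hold any number of reads up to a limit of 13 to 20, depending on the library, so tests on counts were not used. Same-group libraries all differed beyond sampling noise (chi-square per degree of freedom 20.1 or more over 50 pairs), so each mouse counted once. The labels name no separate litters or days.

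The test was limma 3.58.1 (R 4.3.3), with 4 group means, a trended prior variance and adjustment by Benjamini and Hochberg, on log2(CPM + 1) of genes that exceeded the floor in 5 mice or more. Fold changes of low genes are understated on this scale. Python 3.11.15, numpy 2.4.6 and scipy 1.17.1 served for the correlations. Promoters came from RefSeq on GRCm38.p6, whose starts are not always those of GENCODE M21. Both steps were tested on simulated data. Alternatives were other pseudocounts (0.1, 5 and none), filters, scalings, a fit without the trend, replicate blocks, and fits without single mice or the lymphocyte-rich mice (score above 3).

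The 10 genes, the pathway and marker lists and the tests were chosen with earlier results of these data known. Named beside the 10 genes were, from the pathway list in each comparison, every gene past an adjusted p of 0.05 or otherwise the 2 with the smallest p, and for each member the 2 genes with the highest r, of which 1 is not reported here.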

Additional observations from a re-analysis of the deposited data

Results flagged for a closer look

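Among 72 groups of values examined, for the 10 genes and 8 marker scores in 4 groups of mice, 8 held a mouse whose gap to its nearest neighbour exceeded Dixon's 95% limit, where chance alone gives about 1 in 20. For the 10 genes it was 4 of 40 groups, all on the log2(CPM + 1) scale. Insr was lowest in wheel mouse 5 with PBS (4.54, or 22.2 CPM, next 27.6 CPM). Irs1 was lowest in control mouse 3 with clodronate (4.32, or 19.0 CPM, next 50.7 CPM). Slc2a4 was highest in wheel mouse 6 with PBS (7.32, or 158 CPM, next 112 CPM) and lowest in wheel mouse 3 with clodronate (5.53, or 45.3 CPM, next 74.9 CPM). Without wheel mouse 3 with clodronate, the limma p of Slc2a4 for clodronate against PBS was 0.0106.

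The other 4 were marker scores. The lymphocyte score stood out in control mouse 2 with PBS (4.12) and wheel mouse 3 with PBS (4.31), both counted among the lymphocyte-rich mice. In wheel mice with clodronate the fibroblast and adipose progenitor score was highest in mouse 5 (6.23) and the mammary epithelium score in mouse 1 (6.21).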

How the results depend on the processing

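In every alternative run, 0 of the 10 genes passed an adjusted limma p of 0.05 in any of the 5 comparisons, and 0 of the 59 pathway genes did. The lowest adjusted p of any of the 10 genes was 0.0567, for Slc2a4 with clodronate against PBS without control mouse 1 with clodronate. Its log2 change ranged from -0.60 to -0.38 over the 22 fits without 1 mouse, that of Irs1 from -0.57 to -0.36 and that of Igfbp4 from -0.42 to -0.30, each with an unadjusted limma p under 0.05 in all 22. Without the 5 lymphocyte-rich mice, 0 rather than 6 of the 45 pairs of genes and 9 rather than 17 of the 80 relations with marker scores had an adjusted permutation p under 0.05, with 17 mice in place of 22. The cause was not tested. In none of the other alternatives did these counts move by more than 1.5 times.

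Of 50 log2 changes, 18 had another sign under some alternative, none of them past a threshold, and the cause was not tested. With upper-quartile scaling the wheel change with PBS was 0.011 for Igf1r, 0.045 for Igfbp6 and 0.00029 for Slc2a4, the averaged wheel change of Insr 0.023, the change with clodronate 0.070 for Igf1r and 0.071 for both Insr and Irs2, and the interaction of Igf1 -0.058. Scaled to reads in genes, the averaged wheel change of Insr was 0.032 and the change with clodronate 0.037 for Igf1r, 0.039 for Insr and 0.038 for Irs2. Without the lymphocyte-rich mice the wheel change was 0.014 for Igf1r with PBS; with clodronate it was 0.62 for Igfbp3, 0.042 for Igfbp5, 0.25 for both Igfbp6 and Irs1; averaged it was 0.28 for Igfbp3, 0.058 for Igfbp6 and 0.17 for Insr. In the same mice the change with clodronate was 0.034 for Igf1r, 0.18 for Insr and 0.084 for Irs2, and the interaction 0.39 for Igfbp6, 0.13 for Irs1 and 0.40 for Irs2. With a pseudocount of 5 the interaction of Igfbp3 was -0.0064.

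Leaving out 1 mouse at a time, 18 of the 50 changed sign. The ranges with the wheel and PBS were -0.11 to 0.0092 for Igf1r, -0.49 to 0.11 for Igfbp3, -0.20 to 0.18 for Igfbp6 and -0.049 to 0.41 for Irs2. With the wheel and clodronate they were -0.55 to 0.21 for Igfbp3, -0.071 to 0.20 for Insr and -0.41 to 0.020 for Irs1. Averaged over liposomes they were -0.36 to 0.022 for Igfbp3, -0.021 to 0.15 for Igfbp5, -0.11 to 0.031 for Insr and -0.13 to 0.091 for Irs1. With clodronate against PBS they were -0.057 to 0.049 for Igf1r, -0.042 to 0.13 for Igfbp5, -0.065 to 0.078 for Insr and -0.11 to 0.12 for Irs2. For the interaction they were -0.19 to 0.19 for Igf1, -0.38 to 0.39 for Igfbp3 and -0.27 to 0.19 for Irs2.

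Same-numbered mice are different animals, and the mean correlation of their deviations was -0.075 with PBS and 0.181 with clodronate, so the numbers were not taken as pairs. With the replicate block within liposomes, 0 of the 10 genes passed in the 4 comparisons it allows, and it cannot give clodronate against PBS. For that a replicate block over all 4 groups was added after seeing the data. With it 0 of the 10 genes passed, 11 rather than 31 of all genes did, and the change of Insr was 0.016.

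The direction of counts over all genes depended on scaling. At an unadjusted p under 0.05, genes with the wheel and PBS were 121 higher and 623 lower, and 245 and 332 after upper-quartile scaling; with clodronate against PBS they were 323 and 1256, and 681 and 691. The same scaling gave 790 higher and 430 lower for the averaged wheel change (595 and 629 as deposited), and 758 and 309 for the interaction (961 and 186); scaling to reads in genes gave 493 and 893 with clodronate, 801 and 407 for the averaged change and 1385 and 333 for the wheel with clodronate (1065 and 514). Each value of the 10 genes rests on at least 78 reads.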
